A study of Mus musculus with 24 samples.

Results

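DB#1 is a melanoma cell line recovered from a brain site, and its 4 arrays were compared with the 3 arrays of M, the parental line, which makes 7 of the 24 arrays of the series. The samples were chosen by their labelled line, and every gene read on all arrays of at least 1 of the 2 lines was tested. Both lines are mouse B16-F1 melanoma cells that carry green fluorescent protein (GFP). M is the parental line, kept in culture. The dormant line D came from syngeneic mice that had been vaccinated with irradiated melanoma cells overexpressing granulocyte-macrophage colony-stimulating factor (GM-CSF) and had carried the tumour cells for a long time without overt disease. DB#1, DB#2 and DB#3 are a later generation of the dormant cells, each taken from a brain site. All of these lines were expanded in culture and frozen before use, so the arrays describe cultured cells and not cells in the brain. DB#1 is 1 line, and the sources used here do not say whether its 4 samples were separate cultures. The p-values therefore measure only the spread between arrays of a line, estimated jointly over the lines of all 24 arrays.

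B16-F1 cells come from the pigment cell lineage, which arises from the neural crest. Melanocytes make melanin in melanosomes, under the transcription factor Mitf, and move the finished organelles along the cytoskeleton. Melanoma cells can keep this programme or move to less differentiated states with neural crest or mesenchymal features, in which matrix, adhesion and contractile genes are often used differently. Cells that leave the primary site can persist for long periods in a dormant state in which growth, immune recognition and the surrounding matrix have all been studied.

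Each sample was hybridised to a single-colour Agilent array, and a gene's level is given as the normalized log2 signal. This is the log2 intensity minus the 75th percentile of the same array, so 0 is the brightness of that percentile and 1 unit is a doubling. A gene was read on an array when the scanner software marked it as well above background. Between 48.8% and 53.9% of probes were read on the DB#1 arrays and between 49.3% and 52.1% on the M arrays. Another melanoma array, D replicate 3, stood apart with 89.9% of its probes read, and D replicate 1 had the lowest share of all arrays, 43.7%. Both enter the DB#1 to M comparison only through the common estimate of the spread and the slide terms given below. The arrays lay on 3 slides, each with every line, and slide took 47.5% of the variance within lines, so slide was a term of the model.

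The melanocyte label fitted the arrays of both lines. All 7 melanocyte markers (Tyr, Tyrp1, Dct, Pmel, Mlana, Sox10 and Mitf) were read on every array and none was called between the lines. Their summed signal, in multiples of the 75th percentile, was 2191 to 2442 on the M arrays and 2239 to 2482 on the DB#1 arrays. Markers of brain cells were read in part. Of 7 astrocyte markers 5, of 7 oligodendrocyte markers 4 and of 9 microglial and macrophage markers 3 were read on every array of each line. Of 8 neuronal markers 6 were unread on every array of both lines, as were the microglial genes P2ry12, Aif1, C1qa and Adgre1, the oligodendrocyte factor Olig2, and the endothelial genes Cdh5, Kdr, Tek, Flt1 and Cldn5. The blood genes Ptprc, Lyz2 and S100a8 and the fibroblast and pericyte genes Col3a1, Dcn and Rgs5 were also unread throughout. Single members of these lists did move: Mbp, Vwf and Pdgfrb were higher in DB#1, and Map2 and Aldh1l1 were lower. The summed signal of the astrocyte list was 28.0 to 35.8 in M and 14.7 to 16.9 in DB#1, that is, lower in the line from the brain.

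The question of the comparison was how cells recovered from a brain site after dormancy differ from the cells they descend from. With limma, 1163 of 20708 genes tested (5.62%) were called at an adjusted p under 0.05, of which 609 (2.94%) were higher and 554 (2.68%) lower in DB#1. At least a 2-fold change was also met by 534 genes, or 2.58% of those tested, 315 of them higher and 219 lower. In 1089 of the called genes the arrays of the lines did not overlap, as in 19.9% of all genes tested. Among genes that all 7 arrays read, the largest rise was that of Fkbp10, a gene of collagen folding, and the largest fall that of Trpm1, a melanocyte channel. All 1163 genes kept their direction within each of the 3 slides. They were called on these same arrays with slide in the model, so this agreement was likely beforehand. Without M replicate 2 the count was 657 and without M replicate 3 it was 673. With replicate number as a further block 1951 genes were called, 1176 higher and 775 lower, and with unscaled arrays 519 were higher and 308 lower. The balance was turned with quantile normalization, to 690 higher and 714 lower, and with the percentile over detected probes, to 732 higher and 827 lower.

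**Figure D1:**
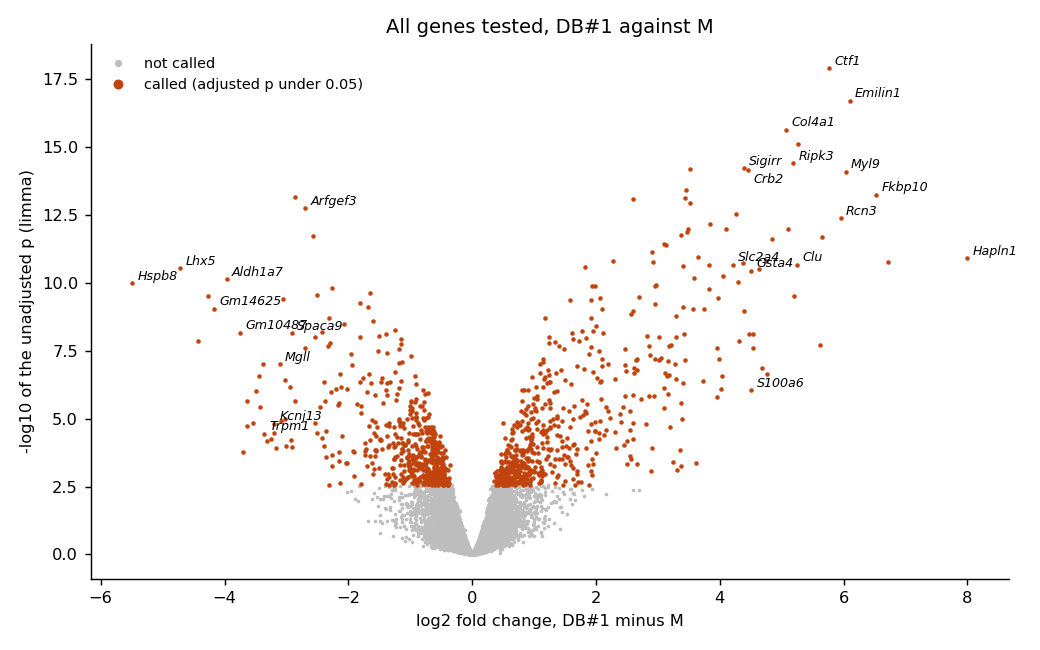
Every gene tested, with the log2 fold change of DB#1 minus M on the horizontal axis and the negative log10 of limma's unadjusted p on the vertical axis. Orange points are the 1163 called genes and grey points the others. For genes unread on every M or every DB#1 array, such as Hapln1 and Hspb8, the fold change drawn is the fitted value and not a bound.

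Among genes that every M and DB#1 array could read and whose lines did not overlap, Fkbp10 rose the most, and it encodes a prolyl isomerase of the endoplasmic reticulum that helps to fold procollagen. Its normalized log2 signal was -3.15, -3.87 and -3.56 on M replicates 1 to 3, and 3.41, 2.74, 2.95 and 2.70 on DB#1 replicates 1 to 4. The lines were far apart and the arrays of each line lay close together. The log2 fold change was 6.53 ± 0.32 (SE; adjusted p 1.08e-10, limma). Rcn3, a calcium-binding protein of the secretory pathway, showed the same picture. It measured -4.02, -3.66 and -3.62 in M and 2.10, 2.25, 2.31 and 2.12 in DB#1, a log2 fold change of 5.95 ± 0.32 (SE; adjusted p 4.92e-10), with 4.04 to 5.96 over the 3 probes.

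Among the other leading rises, S100a6, a calcium-binding protein of the S100 family, was more variable. It measured -3.43, -2.07 and -1.63 in M and 2.95, 1.67, 1.88 and 1.75 in DB#1, with no overlap between the lines (log2 fold change 4.51 ± 0.62 SE, adjusted p 8.69e-05). Sigirr, a receptor that dampens interleukin-1 and Toll-like receptor signalling, measured -2.47, -3.32 and -2.89 in M and 1.40, 1.54, 1.61 and 1.50 in DB#1. Its 4 DB#1 arrays were nearly equal, and the log2 fold change was 4.39 ± 0.19 (SE; adjusted p 1.87e-11). Slc2a4, the insulin-responsive glucose transporter, rose by 4.21 ± 0.29 and Cd72, a receptor best known from B cells, by 4.05 ± 0.29 on the log2 scale. Ldhd, the mitochondrial D-lactate dehydrogenase, rose by 3.85 ± 0.22, the small GTPase gene Rab15 by 3.56 ± 0.31, the actin-bundling gene Fscn1 by 3.52 ± 0.15, and the membrane protein gene Tmem121 by 3.52 ± 0.18. That the lines do not overlap in these 10 genes, or in the falls below, was part of how they were chosen.

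Among genes that all 7 arrays read without overlap, Trpm1 fell the most. It encodes a cation channel of melanocytes that is a known target of Mitf. Its normalized log2 signal was 5.20, 4.33 and 4.13 in M and 1.37, 1.37, 0.99 and 1.07 in DB#1. The lowest M array was therefore far above the highest DB#1 array, and the log2 fold change was -3.37 ± 0.62 (SE; adjusted p 0.00180, limma). The 6 probes of Trpm1 all gave a lower signal in DB#1 but by unequal amounts, from -3.38 to -0.64. Kcnj13, an inwardly rectifying potassium channel, measured 0.13, -0.40 and -0.27 in M and -4.26, -3.12, -3.26 and -2.99 in DB#1 (log2 fold change -3.20 ± 0.55 SE, adjusted p 0.000954). Mgll, the lipase that cleaves monoacylglycerols, measured 4.29, 3.04 and 3.05 in M and 0.24, 0.28, 0.57 and 0.38 in DB#1 (log2 fold change -3.11 ± 0.36 SE, adjusted p 1.39e-05). Replicate 1 was the lowest DB#1 array of Kcnj13 and the highest M array of Mgll.

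Further falls were those of Spaca9 (-2.91 ± 0.29, SE), a gene named for the sperm acrosome, Arfgef3 (-2.70 ± 0.14), 1700003F12Rik (-2.70 ± 0.29), Lrrc75b (-2.46 ± 0.38) and Gm8032 (-2.43 ± 0.24). Lcp1, an actin-bundling protein of blood cells, fell by 2.43 on the log2 scale, and Hpse, heparanase, which cuts heparan sulphate in the matrix, by 2.37. Hpse measured 3.28, 2.43 and 2.09 in M and 0.84, 0.29, -0.06 and -0.12 in DB#1, again without overlap. Arfgef3 measured 1.35, 1.43 and 1.44 in M and -1.30, -1.10, -1.16 and -1.66 in DB#1, also without overlap. Predicted genes such as Gm8032 can have near-identical copies that share a probe, so which copy was read is uncertain.

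**Figure D2:**
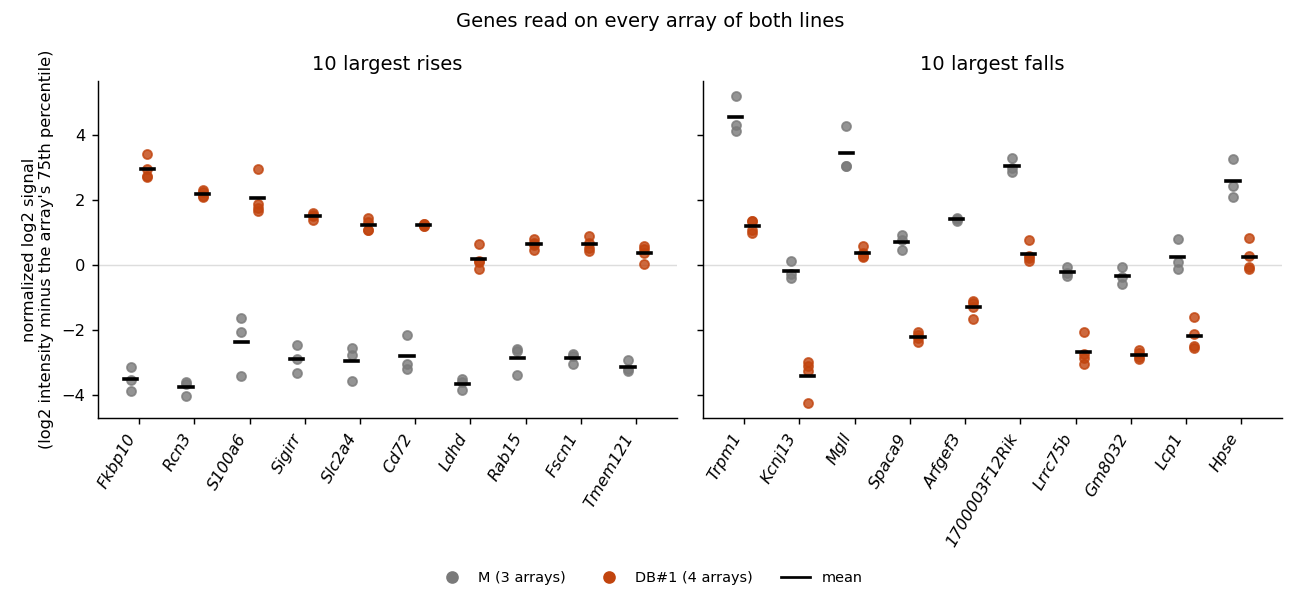
Normalized log2 signal on each array (points) and mean of each line (black bars) for the 10 largest rises (left) and the 10 largest falls (right) among genes that all 7 arrays read and whose lines do not overlap. Grey points are the 3 M arrays and orange points the 4 DB#1 arrays, and the lines lie furthest apart for Fkbp10 on the left and Trpm1 on the right.

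The promoters of the leading melanocyte channels are shown because both hold the letters CATGTG, the core of the M-box that Mitf is known to bind. Sequences are RefSeq windows of assembly GRCm38.p6, from 250 bases before to 50 bases after the transcript start, written 5′ to 3′ on the gene's strand, with the motif in capitals. Trpm1 lies at chr7:64153585-64153884 on the plus strand, with the motif at position -141. Kcnj13 lies at chr1:87394680-87394979 on the minus strand, with the motif, read from the other strand as CACATG, at position -112.
Trpm1: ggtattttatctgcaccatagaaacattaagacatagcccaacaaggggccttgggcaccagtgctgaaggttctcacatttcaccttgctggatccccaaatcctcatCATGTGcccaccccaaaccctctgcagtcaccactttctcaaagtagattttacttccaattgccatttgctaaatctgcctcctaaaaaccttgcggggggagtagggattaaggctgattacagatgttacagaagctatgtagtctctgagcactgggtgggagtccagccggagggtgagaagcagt
Kcnj13: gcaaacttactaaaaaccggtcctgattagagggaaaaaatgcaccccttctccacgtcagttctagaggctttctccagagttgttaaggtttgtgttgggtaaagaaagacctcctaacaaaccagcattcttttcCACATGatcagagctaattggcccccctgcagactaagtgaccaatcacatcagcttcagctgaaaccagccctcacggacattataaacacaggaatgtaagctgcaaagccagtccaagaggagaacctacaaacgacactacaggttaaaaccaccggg
CATGTG, searched on both strands, was found in 903 of the 10328 promoters (8.74%) of genes tested with a symbol. Among the genes called lower it was in 9.87% of promoters and among those called higher in 6.53%, both near the share over all genes.

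A second group of genes was read in 1 line only, where a fold change is a lower bound against the detection limit. There were 96 genes with a symbol read on every DB#1 array and on no M array, and 26 read on every M array and on no DB#1 array. Of these 83 and 20 were called, against 7.51% of the 12917 tested genes with a symbol and a position. The genes were picked for a difference in reading between the lines. A call was thus likely beforehand and is no support of its own. Myl9, the regulatory light chain of smooth muscle myosin, was at least 51.6-fold higher in DB#1, where it measured 2.36, 0.89, 1.39 and 1.06. On the M arrays it was not above background, at -5.02, -4.42 and -4.26. Hapln1, which links hyaluronan to proteoglycans, was at least 50.8-fold higher, with 1.15, 1.47, 1.53 and 1.36 in DB#1 and -6.50 to -6.62 in M. Emilin1, a glycoprotein of elastic fibres, was at least 15.9-fold, Crb2, a cell polarity gene, at least 13.5-fold and Ctf1, the cytokine cardiotrophin 1, at least 12.5-fold higher. The adjusted p of these 5 genes lay at or below 8.09e-09 (limma), from a fit that used their M signals below background.

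The genes read only in M had smaller bounds. Hspb8, a small heat shock protein, measured -0.95, -1.22 and -1.09 in M and -6.83 to -6.32 in DB#1, where it was not above background, and was at least 9.57-fold lower in DB#1. The predicted X-linked gene Gm10487 was at least 8.29-fold lower, the homeobox gene Lhx5 at least 7.53-fold, the aldehyde dehydrogenase gene Aldh1a7 at least 5.83-fold and Gm14625, also X-linked, at least 5.01-fold. The remark on copies made for Gm8032 holds for Gm10487 and Gm14625 as well. Since each line was measured in bulk, fewer cells that use a gene and less RNA per cell cannot be told apart.

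The promoter of Myl9 is shown because it holds a CArG box, the site of serum response factor that is typical of contractile genes. It lies at chr2:156775214-156775513 of GRCm38.p6 on the plus strand, with the CArG box in capitals at position -161.
Myl9: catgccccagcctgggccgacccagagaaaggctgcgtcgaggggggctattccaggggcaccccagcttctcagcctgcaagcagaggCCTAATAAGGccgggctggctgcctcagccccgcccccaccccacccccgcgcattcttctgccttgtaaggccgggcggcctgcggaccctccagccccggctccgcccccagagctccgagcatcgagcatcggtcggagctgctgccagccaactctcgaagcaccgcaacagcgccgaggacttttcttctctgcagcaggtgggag
A CArG box was present in 1.31% of the 10328 promoters. Its share was 1.31% among genes called higher, 1.3% among genes called lower and 1.41% among genes read only in DB#1. All of these were near the share over all genes.

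In 28 lists of genes for pathways that bear on melanoma, dormancy and the brain, 72 of 519 genes tested were called (13.9%). The share was 5.62% over all genes tested and 7.51% over the 12917 with a symbol and a position. The second is the closer comparison, since every list gene has a symbol. The median log2 fold change over all genes was 0.027. The lists and the genes named were chosen with earlier results of these data known, so these shares describe the genes and are not evidence of their own. Without M replicate 2, 47 of the list genes were called. Small changes were the least stable: among 20 other settings the call was lost in 15 for Mmp14, 13 for Srebf1, 12 for Eml2, 11 for Abhd6, 10 each for Rab32, Pfkfb3, H2-T23 and Cd274, 9 for Lef1 (of 19), 8 each for Ap3d1 and Ncam1, 7 for H2-K1 and 6 for Insig1. It was lost in 4 for Xaf1 and Cdkn2c, 3 for Elovl6, 2 for Myc and 1 for Lyst, Lamb1, Slc16a3, Hk1, Cxcl10, Il18 and Gsdmd, and single arrays decided it for Cxcl10 and Il18 (M replicate 1) and Slc16a3 (M replicate 2).

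**Figure D3:**
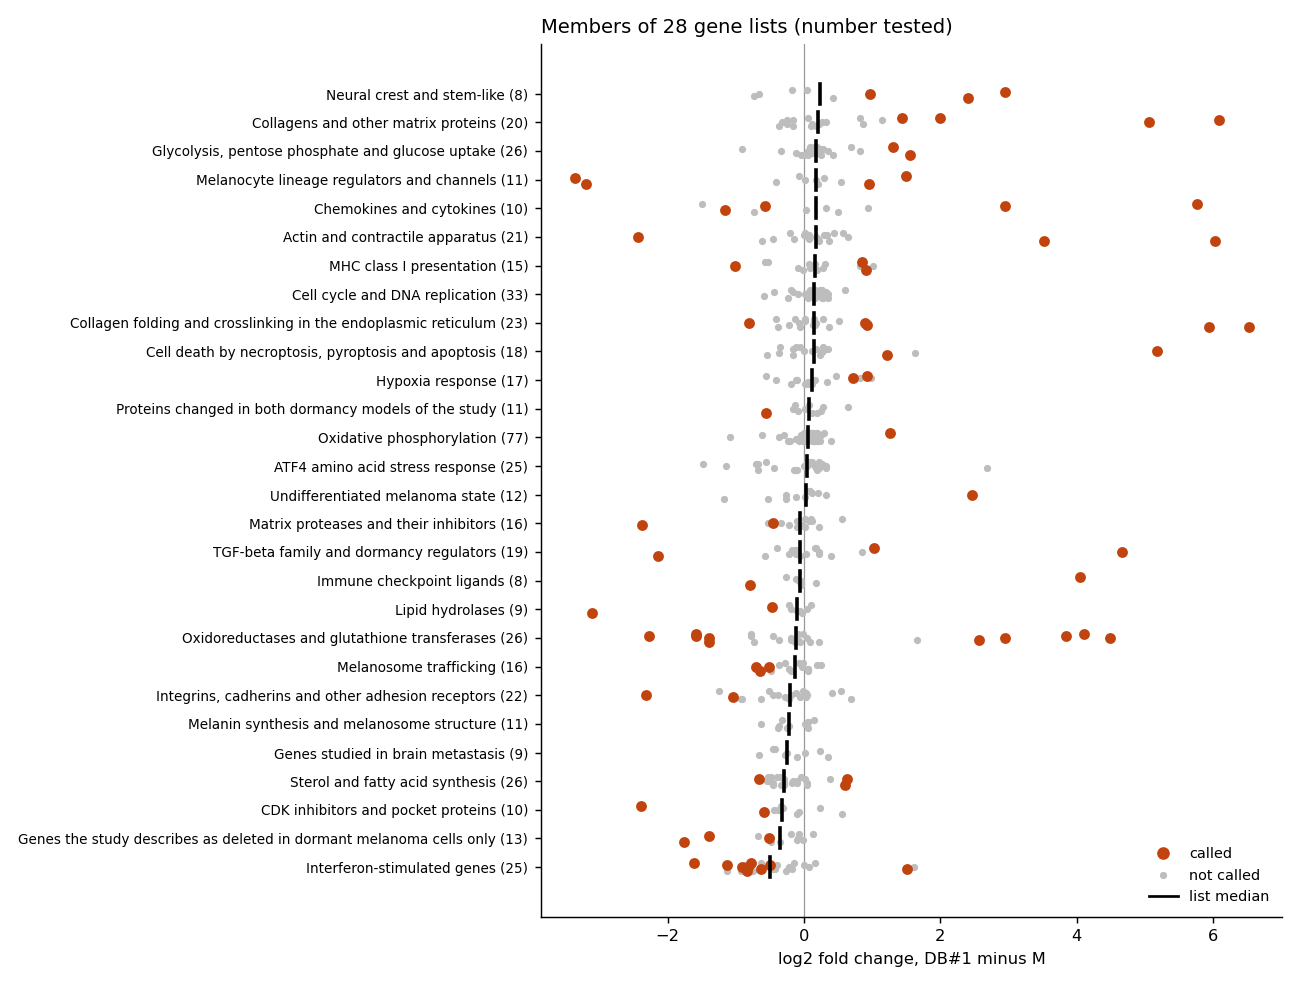
Log2 fold change of DB#1 minus M for each tested member of the 28 gene lists, with the number tested in brackets. Orange points were called, grey points were not, and black ticks are list medians, which run from -0.51 for the interferon-stimulated genes to 0.23 for the neural crest list.

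The pigment programme was close in both lines. Of 11 genes of melanin synthesis and melanosome structure none was called, with a median of -0.21 and single values from -0.63 (Oca2, adjusted p 0.43) to 0.15 (Dct, adjusted p 0.61). Of 16 genes of melanosome trafficking 3 fell and none rose. These were Rab32 (-0.70 ± 0.20, SE), a GTPase of melanosome formation, Lyst (-0.64 ± 0.13), which controls lysosome size, and Ap3d1 (-0.51 ± 0.13), a subunit of the adaptor that sorts melanosome cargo. Of 11 lineage regulators and channels, Trpm1 and Kcnj13 fell while Lef1 (1.49 ± 0.41), a nuclear partner of beta-catenin that was read on 1 of 3 M arrays, and the receptor gene Kit (0.95 ± 0.18) rose. So the large changes in this lineage lay in 2 channels and not in the enzymes that make melanin. 

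Genes of less differentiated melanoma states rose in part. Of 8 neural crest genes tested 3 rose and none fell, with a list median of 0.23. Aldh1a3, which makes retinoic acid, measured -3.27, -3.14 and -3.07 in M and 0.55, -0.52, -0.53 and -0.48 in DB#1. Its lines did not overlap and the log2 fold change was 2.95 ± 0.25 (SE; adjusted p 1.77e-07, limma). Ngfr, the low-affinity nerve growth factor receptor, was unread on the M arrays and was at least 1.78-fold higher, with an adjusted p of 0.000813, and Myc rose by 0.97 ± 0.21. Of 12 genes of the undifferentiated state 1 was called, the water channel gene Aqp1 (2.47 ± 0.29; read on 1 of 3 M arrays), and the median of that list was 0.037.

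Collagen folding and the matrix held some of the larger rises. Of 23 tested genes that fold, crosslink or process collagen, 4 rose. These were Fkbp10 and Rcn3, given above, and far less P4ha2 (0.92 ± 0.16), a collagen prolyl hydroxylase, and Pcolce (0.90 ± 0.20), which promotes the removal of the procollagen end. Fkbp14, an isomerase of the same family as Fkbp10, fell by 0.81 on the log2 scale. It measured 2.80, 3.15 and 3.35 in M and 2.12, 2.27, 2.52 and 2.18 in DB#1, so relatives in 1 enzyme family moved in opposite directions. Of 20 matrix genes tested 4 rose and none fell, with a median of 0.20. Beside Emilin1 these were Col4a1, a chain of basement membrane collagen, Lamb1, a laminin chain, and Spp1, osteopontin. Col4a1 was not above background on the M arrays (-5.87, -5.86 and -5.99) and measured -0.33, -1.21, -0.82 and -1.10 in DB#1, at least 3.43 higher on the log2 scale.

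Lamb1 varied within both lines, at 1.12, -0.88 and -0.91 in M and 2.48, 1.59, 1.60 and 1.45 in DB#1. The first array of each line was its highest, the lines did not overlap, and the log2 fold change was 1.99 ± 0.36 (SE; adjusted p 0.00150, limma). Fn1, fibronectin, gave 1.14 with an adjusted p of 0.052. The collagen genes Col3a1, Col5a2 and Col6a1 were not tested because neither line read them on every array. Of 16 matrix proteases and inhibitors 2 fell, Hpse and Mmp14 (-0.46 ± 0.13), and none rose.

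Adhesion and cytoskeleton moved through single genes. Of 22 integrins, cadherins and other adhesion receptors 2 fell and none rose, with a median of -0.20. F11r, the junctional adhesion molecule JAM-A, measured 2.84, 2.40 and 2.58 in M and 0.08, 0.27, 0.47 and 0.29 in DB#1. This is a log2 fold change of -2.32 ± 0.24 (SE; adjusted p 3.63e-06, limma) with a wide gap between the lines. Ncam1, the neural cell adhesion molecule, fell by 1.04 on the log2 scale, with -1.13 to -0.37 over its 4 probes. Of 21 actin and contractile genes Myl9 and Fscn1 rose and Lcp1 fell, and the other 18 were not called.

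Growth control also changed in few genes. None of 33 cell cycle and DNA replication genes was called, although 27 had a higher estimate in DB#1 (median 0.15), and the proliferation marker Mki67 gave -0.23 with an adjusted p of 0.51. Of 10 CDK inhibitors and pocket proteins 2 fell and none rose, with a median of -0.32. Cdkn1c, the inhibitor p57, measured -2.45, -2.33 and -2.17 in M and -4.23, -4.23, -5.57 and -4.64 in DB#1 (fitted log2 fold change -2.39 ± 0.48 SE, adjusted p 0.00423), where 1 of 4 arrays read it. Cdkn2c fell by 0.59. In the list of transforming growth factor beta (TGF-beta) genes and dormancy regulators, 2 of 19 rose and 1 fell. Gas6, a ligand of the Tyro3, Axl and Mertk receptors, was read on 1 of 3 M arrays at -4.02, -5.04 and -5.34 and measured 0.08, -0.24, -0.07 and -0.08 in DB#1. The log2 fold change was 4.67 ± 0.56 (SE; adjusted p 1.78e-05), and its receptor gene Tyro3 rose by 1.03 ± 0.14. Tgfb1 fell, from -0.18, -0.18 and 0.11 in M to -2.18, -2.50, -2.12 and -2.30 in DB#1 (-2.15 ± 0.32). A ligand and its receptor thus rose together while another dormancy ligand fell.

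Interferon-stimulated genes were the list with the lowest median, -0.51. Of 25 tested 8 fell, 1 rose and 16 were not called, and 21 of the 25 estimates were below 0. Among the genes that fell were Xaf1 (-1.62 ± 0.38, SE), a pro-apoptotic factor, Ddx58 (-1.13 ± 0.19), the RNA sensor RIG-I, Usp18 (-0.91 ± 0.25), the transcription factor genes Stat2 (-0.83 ± 0.20) and Irf9 (-0.51 ± 0.12), Bst2 (-0.77 ± 0.18), which tethers virions, and Rsad2 (-0.63 ± 0.16). Ddx58 measured 0.70, 0.99 and 1.35 in M and -0.14, -0.08, -0.08 and -0.22 in DB#1, without overlap. Against the list, Cxcl10, a chemokine for T cells, rose, from 0.91, 1.56 and 1.64 in M to 2.35, 3.18, 3.01 and 3.00 in DB#1 (log2 fold change 1.51 ± 0.31 SE, adjusted p 0.00423). The number of list genes called lower depended on single arrays: it was 1 without M replicate 2, 3 without M replicate 3, and 5 and 4 without DB#1 replicates 1 and 3. Over all settings run it lay between 1 and 11, and the list median stayed below 0.

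Promoters of the interferon list are shown for a gene that fell and the gene that rose. The core of the interferon-stimulated response element, GAAA followed after any 2 bases by GAAA, is in capitals. Ddx58 lies at chr4:40239776-40240075 of GRCm38.p6 on the minus strand, with the motif, read from the other strand, at position 3. Cxcl10 lies at chr5:92348840-92349139 on the minus strand, with the motif at position -213.
Ddx58: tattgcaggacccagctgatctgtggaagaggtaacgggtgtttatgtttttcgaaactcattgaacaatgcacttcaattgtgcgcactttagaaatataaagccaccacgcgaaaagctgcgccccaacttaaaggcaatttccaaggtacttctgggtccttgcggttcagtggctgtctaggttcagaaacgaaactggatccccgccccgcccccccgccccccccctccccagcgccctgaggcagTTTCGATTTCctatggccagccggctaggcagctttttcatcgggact
Cxcl10: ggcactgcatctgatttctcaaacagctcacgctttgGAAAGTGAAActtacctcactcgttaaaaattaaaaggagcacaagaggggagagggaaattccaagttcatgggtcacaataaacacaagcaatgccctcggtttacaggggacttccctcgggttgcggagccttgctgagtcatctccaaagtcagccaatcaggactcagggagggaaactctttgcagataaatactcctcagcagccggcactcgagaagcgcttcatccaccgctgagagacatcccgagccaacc
The motif was found in 12 of 20 promoters of the tested interferon list (60%) and in 302 of all 10328 promoters (2.92%). It was in 4 of 6 promoters of list genes that fell and in 7 of 13 of list genes not called, and the sequence shown for Cxcl10 holds it too. The presence of the motif therefore did not separate the list genes that fell from the others.

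Other immune genes went in both directions. Of 15 genes of MHC class I presentation H2-K1 (0.91 ± 0.23) and H2-T23 (0.85 ± 0.24) rose and Tapbp (-1.01 ± 0.16), the peptide-loading factor tapasin, fell. The 2 probes of Tapbp disagreed in size, at -1.03 and -0.15. H2-K1 and H2-T23 belong to a family of similar sequences, so their probes may not be specific to 1 gene. Of 8 checkpoint ligands Cd72 rose and Cd274, which encodes PD-L1, fell by 0.80 on the log2 scale. Among 10 cytokine genes tested Ctf1 rose together with Lifr, a subunit of its receptor, which was unread in M and at least 2.49-fold higher in DB#1. Il18 (-1.16 ± 0.25) and Csf1 (-0.57 ± 0.13) fell.

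Metabolic lists contained a few strong changes. Of 26 oxidoreductases and glutathione transferases 5 rose and 5 fell, with a median of -0.11. Gsta4, a glutathione transferase for lipid aldehydes, was read on 1 of 3 M arrays at -4.18, -4.22 and -5.43 and measured -0.49, -0.01, 0.12 and -0.07 in DB#1 (log2 fold change 4.50 ± 0.32 SE, adjusted p 1.68e-08). Dhdh was unread in M and at least 6.18-fold higher, and Ldhd, Aldh1a3 and Dhrs2 (2.56 ± 0.23) rose. The theta-class genes Gstt1 (-1.58 ± 0.29), Gstt2 (-1.39 ± 0.24) and Gstt3 (-1.39 ± 0.14) fell, all 3 on chromosome 10, as did Cbr2 (-2.27 ± 0.49) and Mgst1 (-1.59 ± 0.39). The glutathione transferases hence did not move as 1 group.

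Of 26 genes of glycolysis, the pentose phosphate pathway and glucose uptake 2 rose, the lactate exporter Slc16a3 (1.55 ± 0.34) and hexokinase 1, Hk1 (1.31 ± 0.22). The probes of Hk1 disagreed, with values from -0.04 to 1.29. Of 17 hypoxia genes P4ha2 and Pfkfb3 (0.72 ± 0.20) rose. Of 26 sterol and fatty acid genes 20 had an estimate below 0 (median -0.29), but only Insig1 (-0.67 ± 0.15), a brake on sterol synthesis, was called lower, while Srebf1 (0.60 ± 0.16) and Elovl6 (0.63 ± 0.15) rose. Of this list 8 genes were called lower and 1 higher with quantile normalization, and 9 lower and 1 higher with the percentile over detected probes. In the lipid hydrolase list 2 of 9 fell, Mgll and Abhd6 (-0.47 ± 0.12), both of which cleave monoacylglycerols. None of 25 ATF4 stress genes was called, although their estimates ran from -1.49 to 2.69. The median of that list lay between -0.46 and 0.57 over the other settings and single slides. Of 77 oxidative phosphorylation genes 1 rose, Cox7a1 (1.26 ± 0.26). Among 18 cell death genes Ripk3, the kinase of necroptosis, was unread in M (-6.33, -6.27 and -6.33) and measured -0.89, -1.21, -1.16 and -1.25 in DB#1, at least 8.95-fold higher. Gsdmd, the pore former of pyroptosis, rose by 1.22 ± 0.27.

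None of 9 tested genes studied in brain metastasis was called (median -0.25). Among brain cell markers, Mbp, myelin basic protein, measured 0.08, 0.92 and 1.15 in M and 2.67, 2.73, 3.18 and 2.86 in DB#1 (log2 fold change 2.23 ± 0.37 SE, adjusted p 0.000655). The myelin genes Mog (-0.28, adjusted p 0.23) and Cnp (0.55, adjusted p 0.053) were tested and not called. Vwf, von Willebrand factor of endothelial cells, rose by 3.20 ± 0.56 on the log2 scale and was read on 1 of 3 M arrays. Pdgfrb, a receptor of pericytes and fibroblasts, was unread in M and at least 4.56-fold higher. The part of other cell types in these changes was not tested, and the brain cell markers given above were only partly unread.

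Genes that the study singles out for melanoma were read too. Adssl1, a muscle-type enzyme of purine synthesis, measured -1.73, -1.39 and -0.79 in M and 2.61, 1.59, 1.67 and 1.57 in DB#1, a log2 fold change of 3.17 ± 0.37 (SE; adjusted p 1.13e-05, limma). The study measured SEPTIN9 and CAPG as proteins and found both raised in the dormant line D against M. In RNA of DB#1 against M, Septin9, a cytoskeletal GTPase, gave 0.07 ± 0.12 (adjusted p 0.843). Capg, an actin-capping protein, gave 0.64 ± 0.23 (adjusted p 0.119). Of the genes of 11 proteins that the study describes as changed in both of its dormancy models, the microtubule gene Eml2 (-0.55 ± 0.16) was called. Those proteins too were measured in D, so RNA of DB#1 is another measure in another line.

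Of 13 genes described in the study as deleted in dormant melanoma cells only, 3 fell and 12 had an estimate below 0 in DB#1, with a median of -0.35. S100b, a calcium-binding protein used as a melanoma marker, measured 5.46, 5.43 and 5.86 in M and 3.94, 3.70, 3.83 and 3.86 in DB#1 (log2 fold change -1.76 ± 0.22 SE, adjusted p 3.74e-05). Gstt3 measured 2.56, 2.57 and 2.70 in M and 1.27, 1.11, 1.24 and 1.21 in DB#1, and Ap3d1 is given above. The signal of each remained well above background on every DB#1 array. Others were near 0, such as Metap2 (-0.01, adjusted p 0.986), Wasf1 (-0.07, adjusted p 0.91) and Eef2 (-0.09, adjusted p 0.836). Over all settings 2 to 6 of the 13 were called lower. Lta4h, at -0.35 with an adjusted p of 0.0677, was called in 4 other settings, the replicate block (adjusted p 0.0387) among them, and Stx7, at -0.49 with an adjusted p of 0.22, in 2. This list was chosen by the study on lines of this series, so its count is not independent evidence of a direction.

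Of these 13 genes 12 lie on chromosome 10, and lower RNA estimates extended over the whole chromosome. The study describes those deletions for D. It also reports the same overall copy number pattern, at the level of chromosome arms, in dormant and parental cells. Copy number was not examined here, and the cause of the RNA shift was not tested. Among 628 tested genes of chromosome 10 that have a position, 99 were called lower (15.8%) and 15 higher (2.39%), against 3.55% and 3.96% of all 12917 tested genes with a position. Estimates below 0 were found for 514 of the 628 (81.85%), against 44.45% of all. The median log2 fold change of chromosome 10 was -0.25, while those of the other chromosomes lay between 0.024 and 0.104. Rab32, Stat2, Arfgef3 and the Gstt genes lie on this chromosome, as does Hk1, which rose.

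The shift was seen on every array. On each array, the mean signal of all tested genes with a position was taken from the mean of the chromosome 10 genes. This gave 0.12 to 0.15 on the M arrays and -0.18 to -0.16 on the DB#1 arrays. The value also holds how bright the genes of a chromosome are, so only the difference between the lines bears on the shift. The lines did not overlap. Within slides the median change was -0.258, -0.199 and -0.308. When the chromosome was cut into 10 bins of genes in gene order, the bins had medians from -0.38 to -0.19, so none was near 0. All 10 lay below the lowest bin of any other chromosome, at -0.11. Without the filter on dim genes, the chromosome's median was -0.13, and over all settings it stayed below 0. The number of chromosome 10 genes called lower ran from 40 without scaling to 173 with the percentile taken over detected probes. It was 59 and 58 without DB#1 replicates 2 and 3, and 56, 50 and 54 without M replicates 1, 2 and 3.

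**Figure D4:**
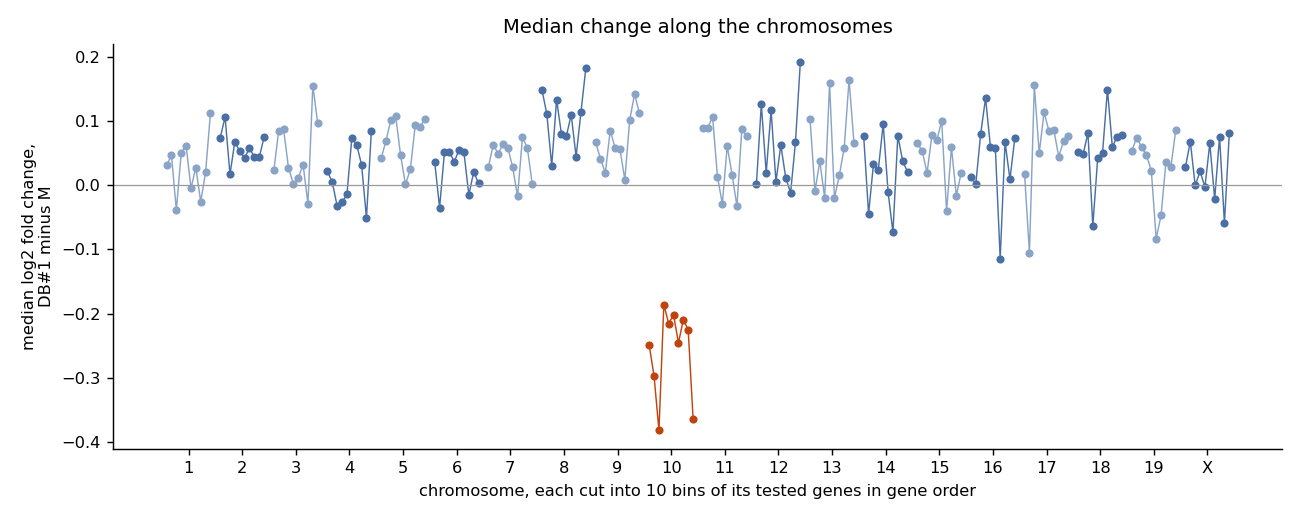
Median log2 fold change of DB#1 minus M in 10 bins of each chromosome's tested genes, taken in gene order. Chromosome 10 is drawn in orange, and its 10 bins, from -0.38 to -0.19, are the lowest of all.

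The bins of chromosome 10 were also computed for the other lines against M, comparisons that share the M arrays with the one above. Their medians were -0.36 to -0.22 for D minus M, -0.33 to -0.17 for DB#3 minus M, and 0.026 to 0.18 for DB#2 minus M. Compared directly, without M, the chromosome's median was 0.070 for DB#1 against D, -0.018 for DB#1 against DB#3 and -0.37 for DB#1 against DB#2. On chromosome 10, DB#1 therefore lay near D and DB#3 and apart from DB#2.

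DB#1 was next set against the other melanoma lines, with the same model. In limma, 125 of 20203 genes (0.619%) were called between DB#1 and D, 104 higher (0.515%) and 21 lower (0.104%) in DB#1. Between DB#1 and DB#2 1965 of 21064 (9.33%) were called, 940 higher (4.46%) and 1025 lower (4.87%). Between DB#1 and DB#3 59 of 20555 (0.287%) were called, 46 higher (0.224%) and 13 lower (0.0632%). These comparisons share the DB#1 arrays with each other, and the difference between the counts was not tested. Against D the split was 109 higher and 7 lower with quantile normalization and 50 higher and 20 lower without scaling, which moved the median of all genes to -0.11, and with only the arrays of these lines in the model 20 genes were called. Against DB#2 it was 332 higher and 1543 lower without scaling, with a median of -0.16.

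Single arrays moved these counts as well. Against D, 79, 82 and 78 genes were called without DB#1 replicates 1, 2 and 3, and 153 without D replicate 1. Against DB#2, 1185 were called without DB#1 replicate 3, and 1056 and 989 without DB#2 replicates 2 and 3. Against DB#3, 39 were called without DB#1 replicate 2 and 35 without DB#3 replicate 5.

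Called higher in DB#1 in all 4 comparisons were 13 genes, of which 10 have a symbol, and none was called lower in all. They were selected by this pattern, and the comparisons share the DB#1 arrays, so their levels are a description. Clu, the secreted chaperone clusterin, measured 1.15, 1.33, 1.49 and 1.43 in DB#1. It lay between -4.59 and -3.28 in M, between -2.85 and -0.98 in D, between -4.26 and -2.72 in DB#2 and between -3.68 and -2.90 in DB#3, so no array of another line came near. Its log2 fold change against M was 5.24 ± 0.36 (SE; adjusted p 1.15e-08), where 2 of 3 M arrays read it, and the adjusted p against D, DB#2 and DB#3 was 1.21e-05, 6.22e-08 and 7.3e-07. Sigirr averaged 1.51 ± 0.09 (SD, n = 4) in DB#1, against -1.33 ± 0.41 (SD, n = 4) in D, -2.03 ± 0.20 (SD, n = 3) in DB#2 and -0.76 ± 0.21 (SD, n = 3) in DB#3. Mbp reached 2.86 ± 0.23 (SD, n = 4) in DB#1 and at most 0.74 ± 0.34 (SD, n = 4), the mean of D, elsewhere.

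The remaining genes of this set were lower in signal or smaller in change. Arhgap45, a GTPase-activating protein, rose by 3.49 ± 0.20 (SE) against M and Prcd, a protein of photoreceptor discs, by 2.96 ± 0.23. Ptgfrn, not above background on the M arrays, was at least 2.06-fold higher, and Tph2, the neuronal enzyme of serotonin synthesis, rose by 1.18 ± 0.11. Tph2 measured -0.11, -0.16, -0.21 and -0.10 in DB#1 and between -1.44 and -0.93 on all other melanoma arrays. The non-coding Carmn and the genes Fitm1 and Gm15910 were read on no M array and were at least 3.40-fold, 2.13-fold and 1.98-fold higher in DB#1. Tph2, Arhgap45 and Gm15910 lie on chromosome 10, against the direction of that chromosome.

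**Figure D5:**
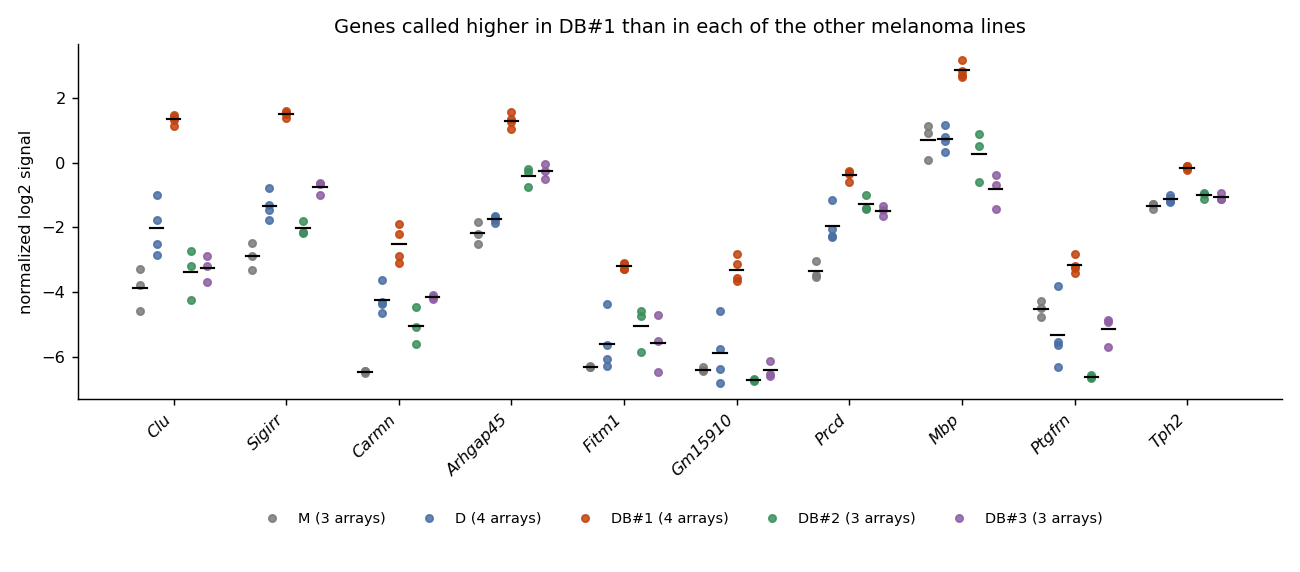
Normalized log2 signal on each array (points) and line means (black bars) in the 5 melanoma lines for the 10 genes with a symbol that were called higher in DB#1 than in each other line. The DB#1 points, in orange, are above the mean of every other line in each gene.

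Most of the leading changes against M were shared to some extent by other lines. Fkbp10 averaged 2.95 ± 0.33 (SD, n = 4) in DB#1 and 2.99 ± 0.11 (SD, n = 3) in DB#3, with lower means in D, 1.14 ± 0.37 (SD, n = 4), and in DB#2, -1.15 ± 0.42 (SD, n = 3). DB#1 was higher than D (adjusted p 0.00257) and DB#2 (adjusted p 6.37e-08), and the difference from DB#3 was not called. Fscn1 averaged 0.64 ± 0.21 (SD, n = 4) in DB#1, 0.42 ± 0.23 in D, 1.01 ± 0.16 in DB#2 and 0.66 ± 0.30 in DB#3. Its level was thus well above M in all lines that had been through mice, and no difference between DB#1 and those lines was called.

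Other genes divided the lines differently. Cd72 averaged 1.24 ± 0.04 (SD, n = 4) in DB#1 and 0.87 ± 0.25 (SD, n = 3) in DB#2, but -1.94 ± 0.80 (SD, n = 4) in D. The adjusted p against D was 2.52e-06, and the difference from DB#2 was not called (adjusted p 0.539). Crb2 averaged -0.54 ± 0.18 in DB#1 and -4.23 ± 0.44 in D, where only 2 of 4 arrays read it. The adjusted p of this fitted difference, which is no bound, was 1.06e-09 (limma). Ctf1 averaged -0.64 ± 0.15 in DB#1, -0.67 ± 0.26 in D and -0.59 ± 0.22 in DB#3, and -3.72 ± 0.33 in DB#2 (adjusted p against DB#2 2.62e-10). Mgll averaged 3.58 ± 0.32 (SD, n = 3) in DB#2, near its level in M of 3.46 ± 0.72 (SD, n = 3), and 0.37 ± 0.15 (SD, n = 4) in DB#1 (adjusted p against DB#2 9.71e-06). The fall of Mgll was thus not seen in DB#2.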

How the data were processed

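Total RNA labelled with cyanine 3 was hybridised to 24 Agilent single-colour arrays, 1 per sample, whose design refers to mouse assembly mm9. The authors deposited a table per array from Feature Extraction 10.7.3.1 (version per the submitters' processing notes and file headers). The deposited values (gProcessedSignal) are intensities on a linear scale, which the authors' software had corrected for background and which had not been scaled between arrays. A deposited series table held the same values (1511424 of 1511424 equal, relative tolerance 1e-06). No table column belonged to a sample outside the series.

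From the intensities, outlier spots and control spots were left out, the spots of a probe averaged, and log2 values taken minus the 75th percentile of each array. The brightest probe stood for a gene, and 32917 of 56605 probes were named through their accession in a RefSeq table (GRCm38.p6). A gene was tested if it was well above background on every array of at least 1 line. limma 3.58.1 (R 4.3.3) fitted all 24 arrays with a term per line and slide as a block (15 residual degrees of freedom), with Benjamini-Hochberg adjustment per comparison and calls at 0.05. Where 1 line did not read a gene, its level there was replaced, on each array, by the dimmest probe that was still read (or by the gene's own signal if higher), and the difference of means is a lower bound.

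The same-numbered arrays of M and DB#1 deviated together, with correlations across genes of 0.61, 0.45 and 0.86. After removing slide these were 0.52, 0.19 and 0.29, and all were over 0.1. Replicate number was therefore a further block in an alternative, which called 1951 genes. The main fit had only line and slide and did not pair the arrays. Pairs with different numbers ran from -0.68 to 0.46, and from -0.47 to 0.27 after removing slide. Some were thus as close as a same-numbered pair, so the correlations do not settle whether the numbers pair the arrays. Arrays of 2 myeloid samples carry no number and formed a level of their own in that block. No test for the arrays is stated in the study.

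The members, gene lists and genes named were chosen with earlier results of these data known. Named were the 10 largest rises and falls read on every array without overlap, up to 5 genes per direction read in 1 line only by their bound, up to 3 called genes per list, up to 5 called alike in all 4 comparisons, the genes the study singles out, and marker genes; other genes were named to complete a count. Alternatives were quantile normalization, normexp background correction (offset 50, on median signals because the tables held no mean signal), a percentile over detected probes, no scaling, no filter or a stricter one, fewer arrays in the model, other treatments of slide and replicate number, single arrays left out, the mean of a gene's probes and a 2-fold threshold. The fit was tested on simulated data. Promoter windows came from RefSeq (10328 of 12919 tested genes with a symbol matched), with the first listed window per gene, and were searched on both strands for the E-boxes CACGTG and CATGTG, the interferon-stimulated response element core and the CArG box, none of which contains another. Some single genes are not reported here.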

Additional observations from a re-analysis of the deposited data

Results flagged for a closer look

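In 8 of the 90 named genes, 1 of the 4 DB#1 arrays stood apart, with a gap to the nearest other array that, as a share of the range of the line, passed the critical value of Dixon's test for 4 values. Chance gives such a gap in about 1 in 20 groups. Replicate 1 was the highest array in 6 of them: S100a6, where the gap took 0.832 of the range, Aldh1a3 (0.953), Lamb1 (0.856), Il18 (0.835), Adssl1 (0.904) and Ube2n (0.868). Replicate 3 was the highest for Lyst (0.884) and Ncam1 (0.937). Aldh1a3, for example, measured 0.55 on replicate 1 and -0.53 to -0.48 on the others, all above the M arrays.

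Some named genes differed from M in DB#1 and had an estimate of the opposite sign in another line, with the direct difference between the lines called by limma. Against DB#2 these were mostly genes that fell in DB#1. The log2 difference of DB#1 minus DB#2 was -3.23 for Mgll, -3.10 for Gm8032, -2.49 for Hpse, -0.568 for Ap3d1, -2.93 for Xaf1, -2.81 for Ddx58, -0.967 for Cd274, -2.76 for Il18 and -2.09 for S100b. For Hspb8 and Gm14625, which no DB#1 array read, the fitted differences of -7.23 and -4.21 are no bounds, and neither is -5.58 for Cdkn1c, which 1 of 4 DB#1 arrays read. Higher in DB#1 than in DB#2 were Lamb1 (3.20), Slc16a3 (2.31) and Mbp (2.67). Lef1 (1.57) and Gm15910 (3.42) were too, as fitted values and not as bounds, since 1 and 0 of 3 DB#2 arrays read them. Ddx58, the RNA sensor, had an estimate of 1.68 for DB#2 minus M and -1.13 for DB#1 minus M.

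Against DB#3, Mbp differed by 3.77, higher in DB#1. The fitted differences of Gas6 (5.06) and Gm15910 (3.11) were also higher in DB#1 but are no bounds, since no DB#3 array read these genes. Against D, Mbp differed by 2.30. Most of the opposite estimates of D and DB#3 against M were near 0, such as -0.07 for Mbp in D, while Mbp in DB#3 minus M was -1.54.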

How the results depend on the processing

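All alternatives are given against the counts in the text. For DB#1 against M, 765 genes were called without a slide term, 1951 with replicate number as a block beside slide, 695 without the filter on dim genes, 534 when a 2-fold change was also required, and 657 to 968 when each array of the 2 lines was left out in turn. With D replicate 3, the array with 89.9% of its probes read, left out of the common model, an alternative chosen after seeing the data, 1503 were called, including all 1163. With only the arrays of DB#1 and M in the model, 1472 were called, 942 of them among the 1163. For DB#1 against D, 70 genes were called without scaling and 20 with only the arrays of these lines. The counts were 78 to 153 with single arrays left out. Against DB#2 these were 1152 without a slide term, 4328 with only the arrays of these lines, 989 to 1622 with single arrays left out and 2561 without D replicate 3. Against DB#3 they were 35 to 61, and 78 without D replicate 3. The replicate block moved the counts against D, DB#2 and DB#3 by less than 1.5 times. Of the list genes 47 to 66 were called with single arrays of the 2 lines left out, and 84 without D replicate 3. The median of chromosome 10 was -0.13 without the filter. The cause was not tested.

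The 90 named genes had 1777 values under alternatives: 1620 kept their direction and side of the threshold, 149 lost the call, 8 gained it and none reversed. Of the 78 called named genes 54 stayed called under every alternative that tested them. Signal over background limits the genes read in 1 line only, for which a bound is given, and 3 or 4 arrays per line limit the precision.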
